A study of Homo sapiens with 8 samples.

Results

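The enzymes and regulators of cholesterol and fatty acid synthesis were followed in lung cancer cells that carried extra EN2, a homeodomain transcription factor of the engrailed family. The list named 32 genes by their place in these routes, and 30 of them were measured among 18244 genes in all. FDFT1 and ACSL3 were not analysed here. A gene was read on the probe set with the highest mean over the 8 arrays among those annotated to that gene alone. The groups were A549 with EN2, A549 with the Neo vector, PC9 with EN2 and PC9 with the Neo vector, with 2 arrays each. A549 and PC9 are lines grown from human lung adenocarcinoma. Per the labels, cells were infected with retrovirus and kept under drug selection as stable lines, so the vector cells had also passed through infection and selection. A549 grew in F-12K medium and PC9 in Dulbecco's medium, both with fetal bovine serum, a source of cholesterol and fatty acids. The labels do not say how many infected populations or clones each group holds, nor whether the 2 arrays of a group came from separate cultures, so the p-values speak only of the variation among these arrays, part of which may be technical.

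Cells build cholesterol from acetyl-CoA through mevalonate, squalene and lanosterol, and build fatty acids from the same acetyl-CoA. Both routes answer to the SREBP transcription factors, the products of SREBF1 and SREBF2, which the escort protein SCAP carries out of the endoplasmic reticulum when sterol is scarce and which the INSIG proteins hold back when sterol is plentiful. Because of this shared control the genes often move together when sterol supply differs, in lung cells as in liver. STARD4, a sterol carrier protein, moves cholesterol between membranes.

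All values are probe set signals on the log2 scale as deposited, so a difference of 1 is a factor of 2 (the field's fold change), and a level on one probe set is not set against that on another. EN2 itself read 7.71 and 7.62 in A549 EN2 arrays, against 6.48 and 6.57 in A549 vector arrays, and 6.24 and 6.39 in PC9 EN2 arrays, against 5.86 and 5.78 in PC9 vector arrays. On this probe set, the brightest for EN2, both lines had higher signal in both EN2 arrays, and the change was called in A549 (1.15 ± 0.091, SE, adjusted p = 0.00028) and not in PC9 (0.50 ± 0.091, adjusted p = 0.0801, limma). A second, dimmer EN2 probe set read 6.46 and 6.34 in A549 EN2 arrays and 6.33 and 6.38 in A549 vector arrays, and 5.19 and 5.20 in PC9 EN2 arrays and 5.29 and 4.78 in PC9 vector arrays, so on it the groups overlapped in both lines. Background was taken as the 95th percentile of 100 spike-in probe sets, 4.42 in A549 and 3.94 in PC9. All 30 genes were above it in both A549 groups and 29 in both PC9 groups, STARD4 being the exception. The 18S rRNA control signal, the mean of 3 probe sets, read 11.66 and 12.12 in A549 EN2 arrays, against 12.44 and 12.74 in A549 vector arrays, and 6.05 to 6.10 in PC9. The gap between 3′ and 5′ actin probes, a measure of RNA integrity, was 0.98 and 0.88 in A549 EN2 arrays, against 0.79 and 0.78 in A549 vector arrays.

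Markers of epithelium and of other cell types were read on the same arrays. All 5 epithelial markers were above background in every group. Of 3 leukocyte markers 2 were above it in every group, CD3E and CD14, and PTPRC was below. Of 3 fibroblast markers 2 were above it in every group, COL1A1 and COL1A2, and DCN was below. Of 3 endothelial markers 2 were above it in A549, PECAM1 and VWF, and all 3 in PC9. Of 4 adipocyte and hepatocyte markers 3 were above it in A549 and in PC9 EN2 arrays and 2 in PC9 vector arrays, with APOB below throughout. The log2 of the summed epithelial signal was 13.67 to 13.74 in A549 EN2 arrays, against 13.94 to 14.00 in A549 vector arrays, and 15.58 to 15.62 in PC9 EN2 arrays, against 15.63 to 15.69 in PC9 vector arrays. For the other types the summed signal lay between 6.26 and 7.84 in every array.

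Promoters are shown for 4 genes on which the results below turn. HMGCS1 differed most between the arrays of a group, MSMO1 was among the lowest changes in A549 and the highest in PC9, STARD4 had the largest difference between the lines, and SREBF2 was the gene with a sterol element. Each is the stretch of 250 bases before a RefSeq start on GRCh38.p14, 5′ to 3′ on the gene's strand. The start shown is the first listed that held a CCAAT box or a sterol element. HMGCS1 had 2 starts listed, and the one not shown held no match. Capitals mark CCAAT boxes, read as CCAAT or as ATTGG on the other strand, and the sterol element TCACCCCAC.
HMGCS1, chr5:43313413-43313662, minus strand: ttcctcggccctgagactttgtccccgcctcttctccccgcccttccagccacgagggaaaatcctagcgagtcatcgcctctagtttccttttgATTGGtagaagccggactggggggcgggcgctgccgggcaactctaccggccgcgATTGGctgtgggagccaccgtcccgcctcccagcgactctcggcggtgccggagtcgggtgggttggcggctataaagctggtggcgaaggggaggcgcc
MSMO1, chr4:165327419-165327668, plus strand: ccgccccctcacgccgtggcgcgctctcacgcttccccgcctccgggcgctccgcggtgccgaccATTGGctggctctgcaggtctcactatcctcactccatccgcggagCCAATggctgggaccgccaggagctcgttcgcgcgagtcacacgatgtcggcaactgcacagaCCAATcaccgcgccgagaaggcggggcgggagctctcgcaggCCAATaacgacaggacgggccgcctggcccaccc
STARD4, chr5:111512536-111512785, minus strand: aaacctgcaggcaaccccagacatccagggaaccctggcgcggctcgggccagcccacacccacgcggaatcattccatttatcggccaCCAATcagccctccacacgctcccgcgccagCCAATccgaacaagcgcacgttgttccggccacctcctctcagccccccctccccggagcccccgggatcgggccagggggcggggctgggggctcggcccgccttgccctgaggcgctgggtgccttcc
SREBF2, chr22:41832855-41833104, plus strand: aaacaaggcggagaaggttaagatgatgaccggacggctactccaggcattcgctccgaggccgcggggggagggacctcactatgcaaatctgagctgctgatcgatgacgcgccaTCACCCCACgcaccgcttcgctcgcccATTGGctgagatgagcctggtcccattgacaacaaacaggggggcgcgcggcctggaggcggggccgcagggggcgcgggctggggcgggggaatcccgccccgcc
MSMO1 held 4 CCAAT boxes, HMGCS1 and STARD4 held 2 each at the start shown, and SREBF2 held 1 beside its sterol element, which began 133 bases before the start.

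Promoters in the RefSeq table, which run from 250 bases before a start to 50 after it, matched 28 of the 30 genes at 39 starts. FASN and SQLE were not matched. The sterol element TCACNCCAC, through which SREBP factors act, was searched on both strands and was found in 1 of the 28 genes (3.57%), SREBF2, against 1.39% of all genes. By promoter it was in 2.56% of the 39, against 1.13% of all 35116. The narrower form TCACCCCAC, a subset of it, was in the same gene, against 0.535% of all genes and 0.43% of all promoters. CCAAT boxes, the sites of NF-Y, a factor known to work beside SREBP, were in 24 of the 39 promoters (61.5%), against 34.6% of all promoters. By gene, 20 of the 28 (71.4%) held a CCAAT box at any start, against 39.7% of all genes. The homeodomain core TAATTA, which is its own reverse complement, was in 1 gene, FDPS, 35 bases before a start (3.57% of the 28 genes, against 5.95% of all genes). A CCAAT box can share bases with one on the other strand, as it did at a start of IDI1. These are matches of letters in a short window, with no measure of binding in these data.

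With EN2 in A549, most of the genes lay slightly lower and 1 of them, AACS, was called lower. AACS encodes acetoacetyl-CoA synthetase, which turns the ketone body acetoacetate into a building block for sterols and fatty acids. It read 7.81 and 7.93 in A549 EN2 arrays, against 8.37 and 8.36 in A549 vector arrays, and 8.70 and 8.78 in PC9 EN2 arrays, against 8.74 and 8.69 in PC9 vector arrays. Both A549 EN2 arrays lay below both vector arrays, and the PC9 groups overlapped. The A549 change was −0.50 ± 0.077 (SE, n = 2 arrays a group), or 1.41-fold lower (adjusted p = 0.0115, limma). All 4 AACS probe sets had lower means in A549 EN2 arrays, with differences of −0.17 to −0.50. On the one at −0.17 the groups overlapped, with 6.54 and 6.83 in A549 EN2 arrays, against 6.92 and 6.79 in A549 vector arrays. The call ended without EN2 replicate 1 (−0.44, adjusted p = 0.105), without vector replicate 2 (−0.50, adjusted p = 0.0816), with the A549 arrays alone (−0.50, adjusted p = 0.0946) and in a fit that held 18S rRNA as a covariate (−0.38, adjusted p = 0.782).

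Over the whole list in A549, 0 genes were called higher, 1 lower and 29 not called, while 2.72% of all genes were called (1.57% higher, 1.15% lower). An unadjusted p below 0.05 was reached by 6 of the 30, against 17.4% of all genes. Of the 30, 25 had a change below 0, against 50.7% of all genes, and the median change was −0.10, against −0.0015 over all genes. Both EN2 arrays lay below both vector arrays in 13 of the 30, against 23.5% of all genes, and above them in 0 of the 30, against 24.1% of all genes. The median was −0.026 when 18S rRNA was held as a covariate. It was −0.048 without EN2 replicate 1 and −0.15 without EN2 replicate 2. The 18S signal and the actin gap, given above, also differed between the A549 groups without overlap. So did the epithelial markers. CDH1, the cadherin of epithelial junctions, read 8.50 and 8.64 in A549 EN2 arrays, against 9.72 and 9.65 in A549 vector arrays (−1.11 ± 0.095, adjusted p = 0.000384). EPCAM (−0.77, adjusted p = 0.00075), KRT19 (−0.70, adjusted p = 0.0021) and KRT18 (−0.20, adjusted p = 0.0476) were also called lower in A549, and KRT8 stood at −0.21 (adjusted p = 0.0773, limma). In PC9 0 of the 5 were called, against 0.367% of all genes. The part of these markers and controls in the changes of the synthesis genes was not tested beyond the covariate fit. As 18S separated the A549 groups and hardly varied in PC9, that fit parts 18S poorly from EN2. Its SE for AACS in A549 was 0.15.

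The values in A549 are given by role, and differences between roles were not tested. All 6 measured mevalonate genes had changes below 0, against 50.7% of all genes, and none was called. Their median was −0.099 and their range −0.15 to −0.019. Their ends were MVK, mevalonate kinase, and MVD, mevalonate diphosphate decarboxylase. Of the pair between squalene and lanosterol, SQLE, squalene epoxidase, had −0.089 ± 0.14 and LSS, lanosterol synthase, had 0.022 ± 0.10, neither called. Of the 7 genes from lanosterol to cholesterol, 5 lay below 0, against 50.7% of all genes, with a median of −0.16. MSMO1 encodes a methylsterol oxidase that helps remove methyl groups from the ring. It read 8.75 and 8.80 in A549 EN2 arrays, against 9.21 and 8.94 in A549 vector arrays. Its groups did not overlap, and its change of −0.31 ± 0.11 was not called (adjusted p = 0.19). DHCR7, which carries out a final reduction, had −0.25 ± 0.11 (adjusted p = 0.268) and EBP, the sterol isomerase, −0.21 ± 0.12 (adjusted p = 0.441). SC5D, a sterol desaturase, was among the 3 highest values of the list, at 0.040 ± 0.076 (adjusted p = 0.866), with 8.58 and 8.71 in A549 EN2 arrays, against 8.65 and 8.56 in A549 vector arrays.

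Among the regulators and STARD4, 5 of 6 lay below 0, against 50.7% of all genes, with a median of −0.028. INSIG1, an anchor that holds SCAP back when sterol is plentiful and is itself a target gene of SREBP, had the highest change of the list, 0.12 ± 0.15 (adjusted p = 0.762). It read 8.20 and 8.30 in A549 EN2 arrays, against 8.31 and 7.96 in A549 vector arrays, so the groups overlapped, and 2 of its 3 probe sets gave the other sign. SREBF1 had −0.019 ± 0.081, SREBF2 −0.11 ± 0.081 and SCAP −0.027 ± 0.070, none of them called.

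Of the 13 genes without overlap in A549, 7 were acyl chain genes, of which 9 were measured. Of all genes, 23.5% were lower without overlap. Among these 9 acyl chain genes, 8 had changes below 0, against 50.7% of all genes, and the median was −0.15. FADS2, the desaturase that opens the route to long polyunsaturated fatty acids, read 7.91 and 8.19 in A549 EN2 arrays, against 8.35 and 8.52 in A549 vector arrays. Its change was −0.39 ± 0.11 (adjusted p = 0.106), all 4 of its probe sets gave the same sign, and it was called only when EN2 replicate 2 was left out (−0.52, adjusted p = 0.0495). SCD, which puts the first double bond into saturated chains, read 11.49 and 11.49 in A549 EN2 arrays, against 11.67 and 11.63 in A549 vector arrays. The arrays of SCD lay close together, and its change of −0.16 ± 0.044 was not called (adjusted p = 0.0989). ACACB, the acetyl-CoA carboxylase that sits at mitochondria, had −0.24 ± 0.096 (adjusted p = 0.228), FADS1, the partner desaturase, −0.15 ± 0.075, and FASN, fatty acid synthase, −0.14 ± 0.13. ELOVL6, which lengthens saturated chains, was the one acyl chain gene above 0, at 0.093 ± 0.11, with 6.74 and 6.93 in A549 EN2 arrays, against 6.78 and 6.71 in A549 vector arrays.

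**Figure D1:**
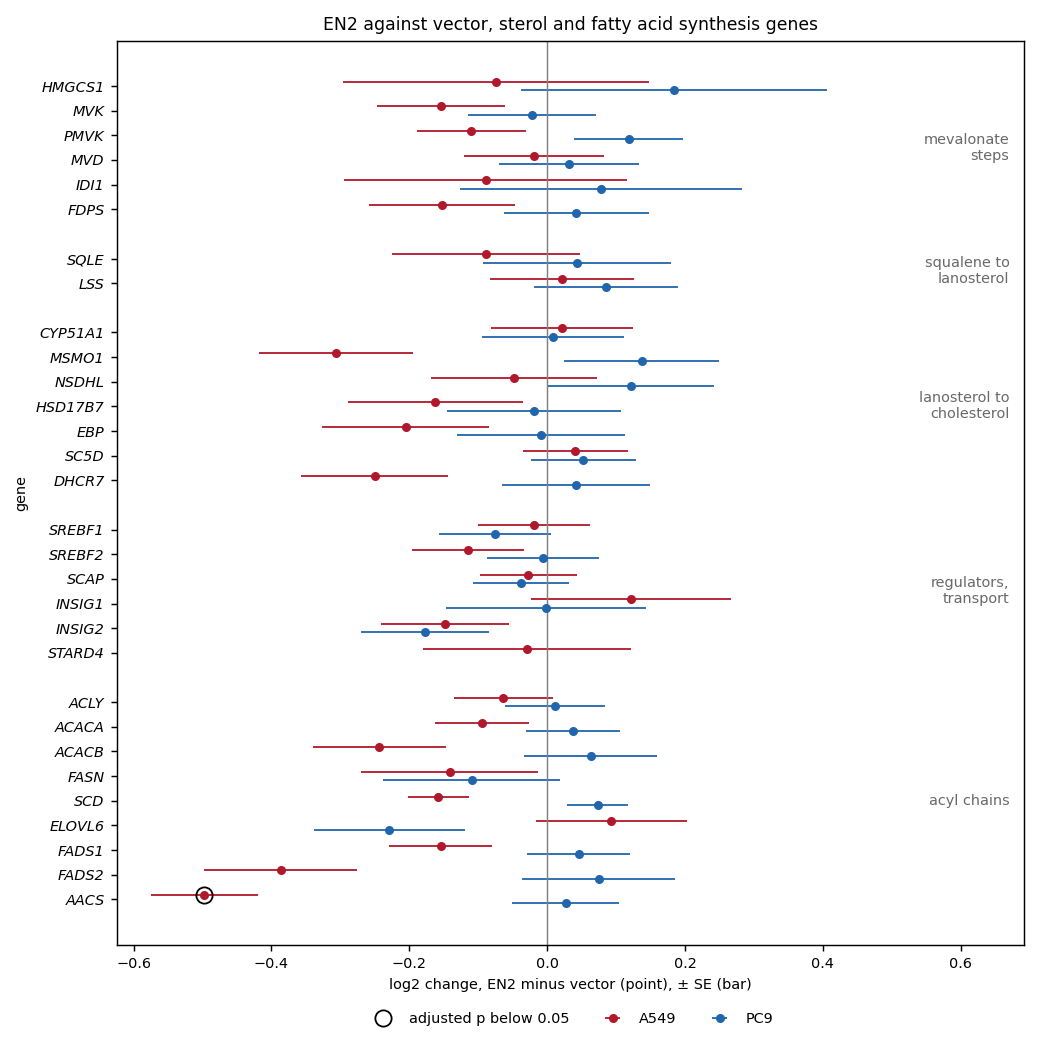
Change of each of the 30 genes with EN2, in log2 units (EN2 minus vector), for A549 (red) and PC9 (blue). Points are limma estimates and bars ± SE, with 2 arrays a group, and genes are grouped by role. AACS in A549, at −0.50, is circled as the call. Most A549 points lie left of 0 and the PC9 points lie around it. No PC9 point is drawn for STARD4, whose PC9 signal was below background.

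In PC9 the list moved little on average. With limma 0 of the 30 genes were called higher and 0 lower, where 0.367% of all genes were called (0.148% higher, 0.219% lower), and 0 of the 30 had an unadjusted p below 0.05, against 6.75% of all genes. The count was also 0 with a constant or a robust prior variance. Changes ran from −0.23 to 0.18 with a median of 0.035, against 0.0040 over all genes (STARD4, below background in PC9, is counted in these figures), and 20 of the 30 were above 0, against 52% of all genes. The EN2 arrays were above both controls in 4 of the 30, against 17.7% of all genes, and below them in 2, against 15.2% of all genes.

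Several of the values at the ends of the PC9 list rested on arrays that stood far apart. HMGCS1, which makes HMG-CoA for the mevalonate route, had the highest change, 0.18 ± 0.22, yet read 8.48 and 9.35 in PC9 EN2 arrays, against 8.74 and 8.73 in PC9 vector arrays. One EN2 array was thus below and the other above both controls, and without EN2 replicate 2 the change was −0.25. MSMO1 read 10.34 and 10.64 in PC9 EN2 arrays, against 10.36 and 10.35 in PC9 vector arrays, a change of 0.14 ± 0.11. NSDHL, the dehydrogenase that acts after MSMO1, read 9.50 and 9.76 in PC9 EN2 arrays, against 9.49 and 9.52 in PC9 vector arrays, a change of 0.12 ± 0.12. For MSMO1 and NSDHL too the value came from EN2 replicate 2, and without it they stood at −0.015 and −0.0086.

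At the low end, ELOVL6 read 8.33 and 8.49 in PC9 EN2 arrays, against 8.76 and 8.52 in PC9 vector arrays. The PC9 groups of ELOVL6 did not overlap, its 3 probe sets agreed in sign, and its change was −0.23 ± 0.11 (adjusted p = 0.788). INSIG2, the second anchor of SCAP, read 9.46 and 9.38 in PC9 EN2 arrays, against 9.48 and 9.72 in PC9 vector arrays, a change of −0.18 ± 0.093 (adjusted p = 0.838) that did not overlap either. FASN read 10.22 and 10.69 in PC9 EN2 arrays, against 10.50 and 10.63 in PC9 vector arrays, a change of −0.11 ± 0.13 with overlapping groups. By role, the median change in PC9 was 0.060 for the mevalonate genes, 0.064 from squalene to lanosterol and 0.042 from lanosterol to cholesterol. It was −0.022 for the regulators and STARD4 and 0.037 for the acyl chain genes, and none of these genes was called.

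The change in A549 minus that in PC9 was tested for each gene, and 0 of the 30 were called with limma, against 0.784% of all genes (0.46% higher, 0.323% lower). An unadjusted p below 0.05 was reached by 5 of them, against 11.9% of all genes. The difference was below 0 for 24 of the 30, against 50.7% of all genes, with a median of −0.13, and −0.012 when PC9 EN2 replicate 2 was left out. AACS had the lowest difference, −0.52 ± 0.11 (adjusted p = 0.079), so its call in A549 alone does not show that the lines differed. FADS2 followed at −0.46 ± 0.16 (adjusted p = 0.279) and MSMO1 at −0.44 ± 0.16 (adjusted p = 0.306), while ELOVL6 had the highest difference, 0.32 ± 0.16 (adjusted p = 0.46). PMVK, phosphomevalonate kinase, ACACA, the cytosolic acetyl-CoA carboxylase, and SCD were picked because their arrays parted in opposite directions. Both EN2 arrays lay below both vector arrays in A549 and above them in PC9. Their differences, −0.23, −0.13 and −0.23, were not called (adjusted p = 0.468, 0.657 and 0.174). The share of all genes with both traits was not counted. In PC9, the lower ACACA EN2 array read 10.0739, against 10.0712 in the higher vector array. A dimmer PMVK probe set gave −0.053 in PC9.

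Averaged over both lines, 0 of the 30 genes were called with limma, against 1.08% of all genes (0.559% higher, 0.521% lower), and 2 had an unadjusted p below 0.05, against 13.3% of all genes. Averages were below 0 in 22 of the 30, against 48.6% of all genes, with a median of −0.045. The lowest averages were AACS at −0.24 ± 0.055 (adjusted p = 0.0932), INSIG2 at −0.16 ± 0.066 (adjusted p = 0.331) and FADS2 at −0.16 ± 0.078 (adjusted p = 0.442). INSIG2 read 8.33 and 8.22 in A549 EN2 arrays, against 8.47 and 8.38 in A549 vector arrays, so in both lines its EN2 arrays lay below its vector arrays, and its 3 probe sets were lower in both lines. The highest averages were INSIG1 at 0.060, HMGCS1 at 0.055 and LSS at 0.053, each within its SE. LSS read 7.08 and 7.02 in A549 EN2 arrays, against 7.06 and 7.00 in A549 vector arrays, and 7.30 and 7.60 in PC9 EN2 arrays, against 7.35 and 7.38 in PC9 vector arrays. HMGCS1 read 8.46 and 8.50 in A549 EN2 arrays, against 8.70 and 8.40 in A549 vector arrays. All 9 acyl chain genes averaged below 0, with a median of −0.068, against 3 of the 6 mevalonate genes.

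A wider list of 35 lipid genes, holding transporters, acyl-CoA ligases, elongases and nuclear receptors, was set beside them, and 33 were measured. In A549, 3 were called higher and 1 lower with EN2, against 1.57% and 1.15% of all genes, and the median was −0.048. In PC9 0 of the 33 were called, against 0.367% of all genes. ACSL1, which attaches CoA to long-chain fatty acids, read 8.85 and 8.89 in A549 EN2 arrays, against 8.13 and 8.11 in A549 vector arrays, and 10.48 and 10.56 in PC9 EN2 arrays, against 10.33 and 10.43 in PC9 vector arrays. It rose by 0.75 ± 0.070 in A549 (adjusted p = 0.000628), its change in PC9 was 0.14, and the difference between the lines was 0.61 ± 0.099 (adjusted p = 0.0303, limma). That difference was not called when any single array was left out (adjusted p from 0.0558 to 0.143). ACSL4, a ligase that prefers arachidonic acid, read 10.18 and 10.20 in A549 EN2 arrays, against 9.69 and 9.59 in A549 vector arrays, and 9.58 and 9.53 in PC9 EN2 arrays, against 9.40 and 9.41 in PC9 vector arrays. It rose by 0.55 ± 0.066 in A549 (adjusted p = 0.00286), and ACSL1 and ACSL4 were the 2 wider-list genes called in the average over lines, at 0.45 (adjusted p = 0.00213) and 0.35 (adjusted p = 0.00661).

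NR1H3, a nuclear receptor that senses oxysterols, read 6.10 and 5.97 in A549 EN2 arrays, against 6.57 and 6.63 in A549 vector arrays, and fell by 0.56 ± 0.094 (adjusted p = 0.0157). MID1IP1, which helps acetyl-CoA carboxylase assemble into filaments, read 9.47 and 9.23 in A549 EN2 arrays, against 8.96 and 8.72 in A549 vector arrays, and rose by 0.51 ± 0.11 (adjusted p = 0.0476). In PC9, MID1IP1 was below background in every array. The groups of these 4 genes did not overlap in A549. All 4 calls ended with the 18S rRNA covariate, with changes of 0.78 for ACSL1 (adjusted p = 0.126), 0.49 for ACSL4 (adjusted p = 0.404), −0.65 for NR1H3 (adjusted p = 0.545) and 0.089 for MID1IP1 (adjusted p = 1.0). With the A549 arrays alone ACSL4 (adjusted p = 0.0621), NR1H3 (adjusted p = 0.0758) and MID1IP1 (adjusted p = 0.186) were not called. NR1H3 also lost its call without EN2 replicate 1 (adjusted p = 0.0603), EN2 replicate 2 (adjusted p = 0.0545) or vector replicate 2 (adjusted p = 0.138). MID1IP1 lost it without A549 EN2 replicate 1 (0.39, adjusted p = 0.337), without A549 vector replicate 2 (0.39, adjusted p = 0.35) and without any one PC9 array (adjusted p from 0.0764 to 0.0785). It was also lost with a constant prior variance (adjusted p = 0.0504), with quantile normalisation (adjusted p = 0.0514) and with median centring (adjusted p = 0.0518). The averages of ACSL1 (adjusted p = 0.0723) and ACSL4 (adjusted p = 0.244) were not called with the covariate. In that fit the SE in A549 rose from 0.094 to 0.20 for NR1H3 and from 0.11 to 0.18 for MID1IP1. The 18S signal itself separated the A549 groups, so a call lost in that fit does not show that the change depended on 18S.

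**Figure D2:**
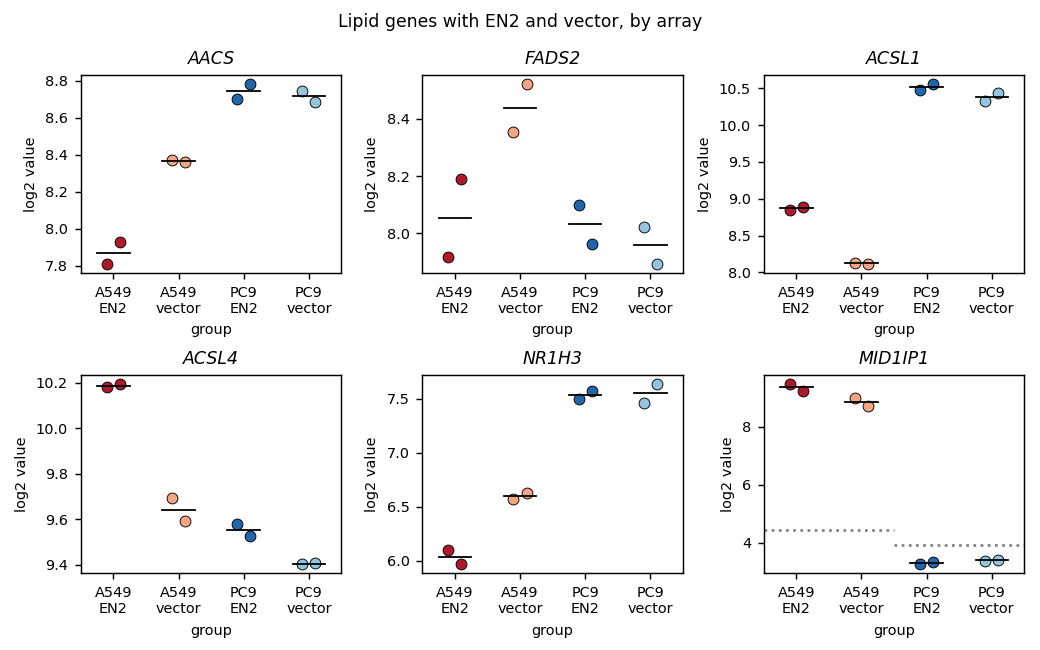
Log2 signal on each array for AACS and FADS2 of the synthesis list and for ACSL1, ACSL4, NR1H3 and MID1IP1 of the wider lipid list. Points are arrays, 2 a group, bars are group means, and the dotted line in the MID1IP1 panel is background (4.42 in A549, 3.94 in PC9). In A549 the EN2 points lie apart from the vector points in all 6 panels.

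The lines themselves differed far more than EN2 and vector did. In the vector arrays, 19 of the 30 genes were lower in A549 than in PC9, 6 were higher and 5 were not called, where 75.8% of all genes were called (46% higher, 29.7% lower). The median difference was −0.35, against 0.17 over all genes, and 22 of the 30 were below 0, against 40.3% of all genes. Both A549 arrays lay below both PC9 arrays in 21, against 35% of all genes, and above them in 7, against 53.4%. At least 2-fold differences were found in 10 genes, 9 of them lower in A549 and 1 higher, against 10.1% and 12.8% of all genes. In the EN2 arrays, a separate set of samples, 18 genes were lower in A549, 4 higher and 8 not called, where 75.7% of all genes were called (45.8% higher, 29.9% lower). The median there was −0.42, against 0.17 over all genes, and 23 of the 30 were below 0, against 40.2% of all genes. There 20 genes had both A549 arrays below both PC9 arrays, against 34.7% of all genes, and 4 had them above, against 53.2%. Again 9 genes were at least 2-fold lower and 1 higher, against 10.2% and 13% of all genes. The lines grew in different media, and their scale relative to each other is not known. The 18S signal was 11.66 to 12.74 in A549 arrays, against 6.05 to 6.10 in PC9 arrays. The actin gap was 0.78 to 0.98 in A549 arrays, against 1.03 to 1.29 in PC9 arrays. Line, medium, scale and RNA integrity therefore cannot be told apart. In these bulk samples fewer cells of a kind and less RNA per cell cannot be told apart either. Quantile normalisation over all arrays gave 17 lower and 6 higher in the vector arrays. With it the split of all called genes was 6517 higher and 6386 lower, where the deposited scale gave 8399 higher and 5424 lower. Among EN2 arrays it was 6440 higher and 6513 lower, where the deposited scale gave 8357 higher and 5455 lower.

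The lowest differences were spread over several roles. FASN, which assembles palmitate, read 8.19 and 8.18 in A549 EN2 arrays, against 10.22 and 10.69 in PC9 EN2 arrays, and 8.29 and 8.35 in A549 vector arrays, against 10.50 and 10.63 in PC9 vector arrays. It was 4.74-fold lower in A549 than in PC9 among vector arrays (−2.24 ± 0.13, adjusted p = 1.77e-07) and 4.84-fold lower among EN2 arrays. SCD, with the A549 values given above, read 13.50 and 13.48 in PC9 EN2 arrays and 13.41 and 13.42 in PC9 vector arrays, and was 3.40-fold lower in A549 among vector arrays (−1.77 ± 0.044, adjusted p = 6.21e-10). ELOVL6 was 3.71-fold lower (−1.89 ± 0.11, adjusted p = 1.97e-07). FASN, ELOVL6 and SCD did not overlap between the lines in either group of arrays.

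DHCR7 read 7.50 and 7.65 in A549 EN2 arrays, against 9.84 and 10.07 in PC9 EN2 arrays, and 7.81 and 7.85 in A549 vector arrays, against 10.04 and 9.80 in PC9 vector arrays. It was 4.25-fold lower in A549 vector arrays (−2.09 ± 0.11, adjusted p = 8.47e-08). FDPS, which makes farnesyl diphosphate for sterols and protein prenylation, read 9.06 and 9.28 in A549 EN2 arrays, against 10.79 and 10.82 in PC9 EN2 arrays, and 9.19 and 9.47 in A549 vector arrays, against 10.84 and 10.70 in PC9 vector arrays. FDPS was 2.71-fold lower in A549 vector arrays (−1.44 ± 0.11, adjusted p = 1.04e-06). INSIG1 read 9.38 and 9.81 in PC9 EN2 arrays and 9.57 and 9.62 in PC9 vector arrays, and was 2.77-fold lower in A549 vector arrays (−1.47 ± 0.15, adjusted p = 8.77e-06). The other 3 genes at least 2-fold lower were SREBF2 at −1.41, MSMO1 at −1.28 and INSIG2 at −1.17 among vector arrays. SREBF2 and INSIG1, whose products drive and restrain the sterol genes, were thus lower in the same line.

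Not all steps followed. Of the 6 mevalonate genes 2 were lower in A549 vector arrays, FDPS and MVK, and 1 was higher, PMVK. The other 3 were not called, among them HMGCS1 at −0.18 ± 0.22 and IDI1, the isomerase of the isoprene units, at 0.18 ± 0.21. Over all genes 29.7% were lower and 46% higher, so the 2 of 6 lie near the share lower. Differences between roles were not tested. Of the 7 genes from lanosterol to cholesterol, 6 were lower and 1 was higher, against the same shares of all genes. That one was HSD17B7, a sterol ketone reductase that also makes oestradiol, with 6.43 and 6.42 in A549 EN2 arrays, against 5.50 and 5.80 in PC9 EN2 arrays, and 6.75 and 6.43 in A549 vector arrays, against 5.66 and 5.68 in PC9 vector arrays. It was 0.92 ± 0.13 higher in A549 among vector arrays (adjusted p = 9.29e-05). ACLY, which splits citrate into the acetyl-CoA that feeds both routes, read 11.62 and 11.76 in A549 EN2 arrays, against 10.82 and 10.98 in PC9 EN2 arrays, and 11.72 and 11.79 in A549 vector arrays, against 10.91 and 10.87 in PC9 vector arrays. It was 0.86 ± 0.072 higher in A549 among vector arrays (adjusted p = 2.61e-06), opposite to FASN downstream of it.

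STARD4 stood apart from the rest. It read 6.66 and 6.91 in A549 EN2 arrays, against 3.52 and 3.75 in PC9 EN2 arrays, and 7.04 and 6.59 in A549 vector arrays, against 3.63 and 3.59 in PC9 vector arrays. The PC9 values were not above background, so only a bound against the PC9 background level can be given. On this probe set, the brightest, STARD4 was at least 7.34-fold higher in A549 among vector arrays and at least 7.20-fold higher among EN2 arrays. The adjusted p of 4.62e-08 (limma, vector arrays) is for the difference of the signals as read, not for the bound. In PC9, 0 of its 5 probe sets were above background in either group, and in A549 4 of the 5 were above it in both groups. The dimmer ones above it averaged 6.22, 5.92 and 6.09 in A549 vector arrays, so their bounds were smaller. INSIG2 and SREBF2, regulators of the same pathway as STARD4, had the opposite sign between the lines.

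PMVK read 8.03 and 8.06 in A549 EN2 arrays, against 7.65 and 7.72 in PC9 EN2 arrays, and 8.14 and 8.17 in A549 vector arrays, against 7.63 and 7.50 in PC9 vector arrays. It was 0.59 ± 0.079 higher in A549 among vector arrays (adjusted p = 8.1e-05) and 0.36 ± 0.079 higher among EN2 arrays. FADS2 read 8.10 and 7.96 in PC9 EN2 arrays and 8.02 and 7.89 in PC9 vector arrays. ACACB read 6.74 and 6.89 in A549 EN2 arrays, against 6.75 and 6.65 in PC9 EN2 arrays, and 7.00 and 7.12 in A549 vector arrays, against 6.56 and 6.70 in PC9 vector arrays. FADS2 (0.48 ± 0.11, adjusted p = 0.00281) and ACACB (0.43 ± 0.096, adjusted p = 0.00243) were called higher in A549 among vector arrays and not among EN2 arrays, where they stood at 0.021 and 0.12. The drop between these values equals the difference of the EN2 changes between the lines, which was not called for FADS2 (adjusted p = 0.279) or ACACB (adjusted p = 0.418).

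**Figure D3:**
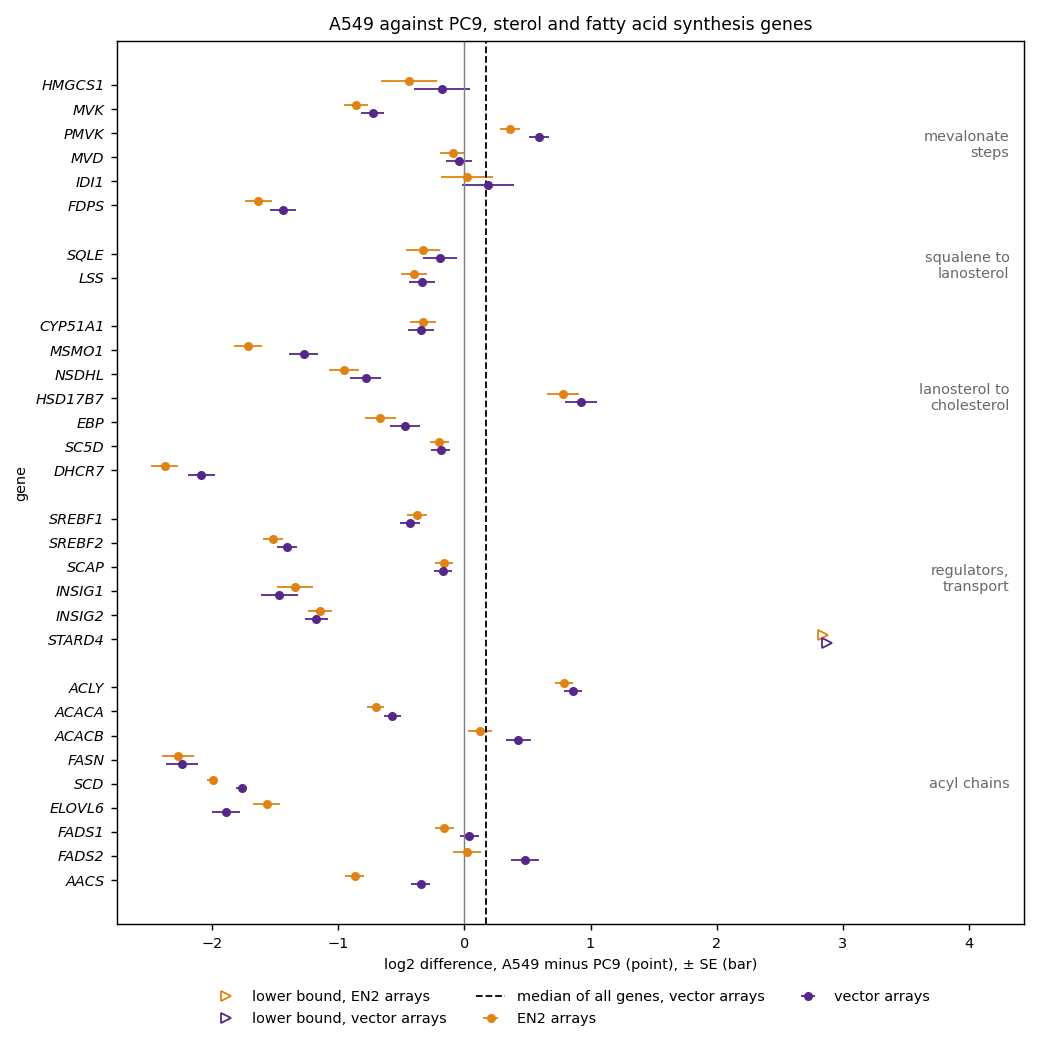
Difference between the lines for each of the 30 genes, in log2 units (A549 minus PC9), among EN2 arrays (orange) and vector arrays (purple). Points are limma estimates, bars ± SE, and the dashed line is the median of all genes among vector arrays, 0.17. Open triangles are lower bounds for STARD4, whose PC9 signal was below background. FASN, DHCR7, ELOVL6 and SCD lie near −2, and the STARD4 bounds lie far to the right, at 2.85 among EN2 arrays and 2.88 among vector arrays.

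**Figure D4:**
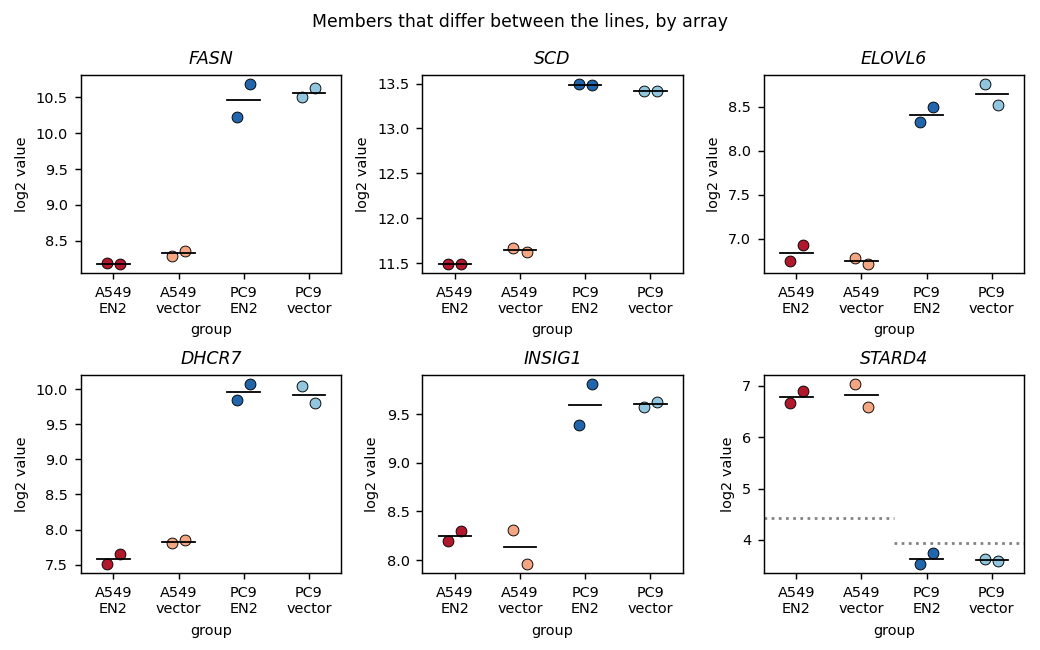
Log2 signal on each array for FASN, SCD, ELOVL6, DHCR7, INSIG1 and STARD4. Points are arrays, 2 a group, bars are group means, and the dotted line in the STARD4 panel is background. The A549 and PC9 points do not overlap in any panel, and PC9 STARD4 points lie below background.

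Where a gene had several probe sets they did not always agree. Of the 25 genes with more than 1 probe set, all probe sets gave the same sign for the line difference among vector arrays in 17, for the EN2 change in A549 in 16 and for the EN2 change in PC9 in 16. ACACA was −0.57 between the lines on its brightest probe set and up to 1.22 on another, and AACS was −0.35 on its brightest and up to 0.78 on another. The direction of these genes between the lines holds only for the probe set read. SQLE, SREBF1, HMGCS1, LSS, FADS1 and ACACB also had probe sets of both signs between the lines. Of the 9 genes at least 2-fold lower in A549 vector arrays, FASN and DHCR7 rest on 1 probe set each, and the other 7 had probe sets that all gave the lower sign.

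Differences between the 2 arrays of a group were described for these genes after the values were seen. In PC9 with EN2, replicate 2 was higher than replicate 1 in 23 of the 30 genes, against 43.9% of all genes, with a median gap of 0.13, against −0.020 over all genes. Gaps larger than 0.34, the 95th percentile of all genes, were found in 5 of the 30 (16.7%). They were HMGCS1 at 0.87 and IDI1 at 0.79, sizes reached by 0.0822% and 0.115% of all genes, then FASN at 0.47, SQLE at 0.45 and INSIG1 at 0.43. IDI1 read 8.28 and 9.08 in the PC9 EN2 arrays, against 8.66 and 8.54 in PC9 vector arrays. All 6 mevalonate genes were higher in that replicate, with a median gap of 0.20. The actin gap in the same arrays was 1.29 in replicate 1 and 1.03 in replicate 2, and the part it had in these gaps was not tested.

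The other groups had fewer gaps past the 95th percentile. In A549 EN2 arrays, replicate 2 was higher in 24 of the 30 genes, against 51.5% of all genes, with a median gap of 0.11, against 0.0052 over all genes, and 0 of the 30 passed the 95th percentile. In A549 vector arrays 2 of the 30 passed it, STARD4 and INSIG1, both lower in replicate 2, by −0.45 and −0.35. In PC9 vector arrays 0 of the 30 passed it, and replicate 2 was higher in 12 and lower in 18. The spread between replicates of HMGCS1 and IDI1 gave them the widest SE of the list, 0.22 and 0.21. A call needs a change of several SE, so EN2 changes well above that size could also go uncalled in these genes.

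**Figure D5:**
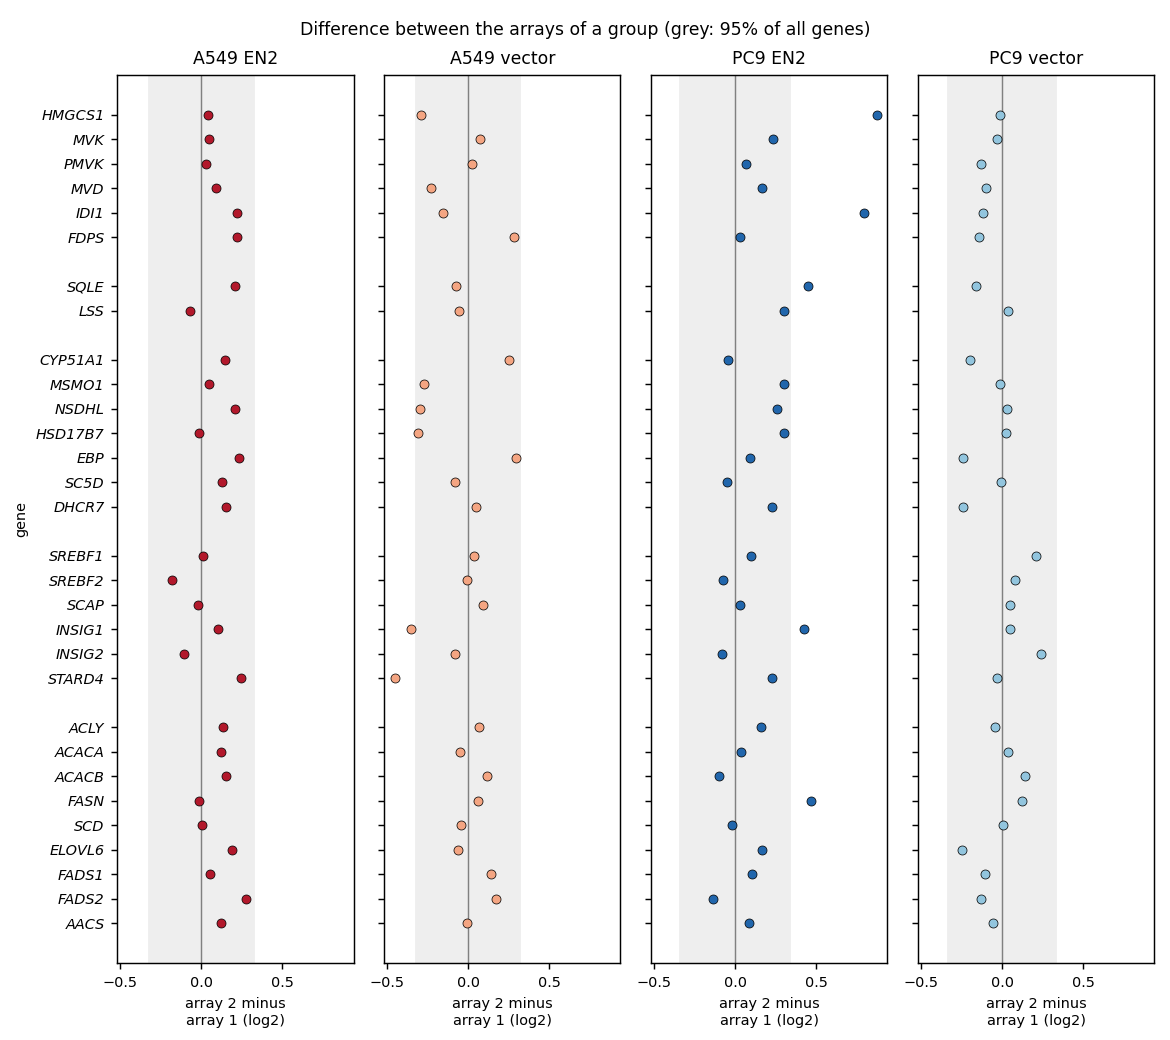
Signal of replicate 2 minus replicate 1 for each gene, in log2 units, in the 4 groups. The grey band holds 95% of all genes of that group, and ends at 0.34 on either side of 0 in PC9 EN2 arrays. HMGCS1 and IDI1 lie far to the right of the band in PC9 EN2 arrays, and 0 genes leave it in A549 EN2 and PC9 vector arrays.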

How the data were processed

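Total RNA of the 8 samples was copied to cDNA and labelled with biotin for arrays of a single colour, per the labels. The deposited values are log2 signals made by the authors with RMA, as the submitters' processing notes name it, and its version is not given in the sources used here. Whether the lines were normalised together is not stated, and array medians spanned 6.33 to 6.35 in A549, against 6.10 to 6.11 in PC9. No counts exist, so depth does not apply and the number of arrays limits the precision.

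The members and lists were chosen with earlier results of these data known. Of 49495 probe sets, 45284 carried 1 symbol, 1333 several and 2878 none, and 45214 matched the GRCh38.p14 gene table by Entrez number, which updated the symbols. The brightest probe set by mean stood for a gene, without a filter on dim probe sets. Genes were fitted with limma 3.58.1 in R 4.3.3 (lmFit with a mean per group, eBayes with an intensity trend, 4 residual degrees of freedom, two-sided), with Benjamini-Hochberg adjustment over 18244 genes and a call at an adjusted p below 0.05. Comparisons were EN2 against vector in each line, their difference and average, and A549 against PC9 among vector and among EN2 arrays. Values on every array are given for called members, the 3 highest and 3 lowest EN2 changes in each line and on average, and the 6 highest and 6 lowest line differences, and of the wider lipid list up to 4 called genes a comparison were to be named. Of that list the Results describe only the genes called with EN2. The closing observations add the 4 with the smallest p between the lines among vector arrays. They also name ELOVL7 and ACSL5, picked because they lay on opposite sides of their vector arrays in the lines. Single values of other members were chosen after they were seen. Alternatives were other prior variances, brighter genes alone, median centring, quantile normalisation, averaging the probe sets of a gene, a replicate block, an 18S rRNA covariate, a line alone and each array left out.

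On simulated data with 200 of 18244 genes changed, 46.1% of changes of 0.5, 91.9% of changes of 1 and 99.4% of changes of 2 were recovered for A549, and 53.1%, 91.8% and 99.4% for PC9. Of the calls, 4.41% were false for A549 and 3.15% for PC9. The noise was normal and independent between arrays, with the spreads of the genes shuffled among them. It held no effect shared by the genes of an array, so the rates may not hold for the real arrays.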

Additional observations from a re-analysis of the deposited data

Results flagged for a closer look

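ACSL1 of the wider lipid list drew attention because its EN2 change differed between the lines by the test of that difference. It was 0.61 larger in A549 than in PC9 (SE 0.099, adjusted p = 0.0303, limma), with a change of 0.75 in A549 and 0.14 in PC9. In each line the EN2 arrays were above both controls. The call of the difference ended with a constant prior variance (adjusted p = 0.0515), with the 18S rRNA covariate (adjusted p = 0.33) and when any single array was left out (adjusted p from 0.0558 to 0.143).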

How the results depend on the processing

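The counts of 0 in PC9, in the difference between lines and in the average held under every alternative run. In A549 the count of 1 lower gene was 0 with the 18S rRNA covariate and 0 with the A549 arrays alone, and 0 to 2 with an array left out. The A549 median was −0.026 with the covariate and −0.15 to −0.048 with an array left out, the PC9 median −0.054 to 0.094, and the median difference of the changes −0.062 with the covariate and −0.23 to −0.012 with an array left out. Between the lines, medians were −0.43 among vector arrays and −0.67 among EN2 arrays with the brighter genes alone, where 27 members were left and 3 and 2 were higher. They were −0.22 and −0.25 with the mean of all probe sets, −0.93 and −0.96 with the covariate, and −0.47 among EN2 arrays with median centring. With the covariate, 0 were higher and 0 lower in both comparisons. The 18S signal itself separates the lines, so the covariate leaves little of the line difference to test. It also separates the A549 groups, so the same limit holds for the EN2 change in A549. With an array left out the medians were −0.40 to −0.33 among vector arrays and −0.63 to −0.34 among EN2 arrays.

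Some signs turned. With the 18S covariate these were FADS2 in A549 (0.014) and on average (0.050), INSIG1 in A549 (−0.017) and on average (−0.012), HMGCS1 (−0.035) and LSS (−0.0047) on average, and between the lines ACLY (−0.86 among vector and −0.75 among EN2 arrays), FADS2 (−3.21 and −3.29) and ACACB (−1.95 and −2.01). With the mean of all probe sets INSIG1 was −0.0054 in A549 and −0.0034 on average, and with median centring FADS2 was −0.034 between the lines among EN2 arrays. With an array left out, the lowest and highest values were −0.054 and 0.30 for INSIG1, −0.0019 and 0.19 for ELOVL6 and −0.024 and 0.11 for SC5D in A549, and −0.25 and 0.62 for HMGCS1, −0.015 and 0.29 for MSMO1, −0.0086 and 0.25 for NSDHL and −0.34 and 0.12 for FASN in PC9. On average they were −0.047 and 0.17 for INSIG1, −0.16 and 0.27 for HMGCS1 and −0.023 and 0.13 for LSS, and for FADS2 between the lines among EN2 arrays −0.12 and 0.16. The cause was not tested.

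Same-numbered arrays of a line had correlated deviations in A549 (0.35) and hardly in PC9 (0.066). The main fit did not take the numbers as pairs, and a pairing within A549 alone was not tested. A block for the replicate number, with the same effect in both lines, was fitted instead. With it AACS stayed called in A549 (adjusted p = 0.00901, limma) and 0 members were called in PC9. Between the lines among vector arrays 6 were higher and 18 lower.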

Other observations

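In the wider lipid list, 18 of 33 genes were lower and 11 higher in A549 than in PC9 among vector arrays, and 18 lower and 12 higher among EN2 arrays, with medians of −0.55 and −0.67. Of all genes, 29.7% were lower and 46% higher among vector arrays and 29.9% lower and 45.8% higher among EN2 arrays, with a median of 0.17 in both. Of the 4 genes with the smallest p among vector arrays, MID1IP1 was at least 29.9-fold higher in A549, where PC9 was below background. The log2 difference, A549 minus PC9, was −2.26 for ACSL1, −1.59 for NPC2, which carries cholesterol out of lysosomes, and −1.17 for TECR, which completes each round of fatty acid elongation. The bound for MID1IP1 among EN2 arrays was 42.5-fold.

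ELOVL7 and ACSL5 of the same list lay on opposite sides of their vector arrays in the lines, and the share of all genes that did so was not counted. The differences between the lines were 0.42 for ELOVL7 (adjusted p = 0.418) and −0.49 for ACSL5 (adjusted p = 0.122, limma), and neither was called.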
